A study of Homo sapiens with 40 samples.

Results

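The suppressor of cytokine signalling (SOCS) family comprises CISH and SOCS1 to SOCS7. Its 8 genes were found, in 1 row each, among the 62263 genes of the deposited count table by looking up the symbol of every Ensembl identifier. All 8 passed the filter on low counts that left 16735 genes for testing. SOCS proteins are feedback inhibitors of cytokine receptors. A cytokine activates JAK kinases at its receptor, the kinases phosphorylate STAT transcription factors, and the STATs switch on SOCS genes, whose proteins bind the receptor or kinase through an SH2 domain and recruit a ubiquitin ligase through the SOCS box. IL-13, a cytokine of allergic airway inflammation, acts on airway epithelium through IL4R and IL13RA1 and the transcription factor STAT6.

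The cells were BEAS-2B, an immortalised human bronchial epithelial line, in 8 groups of 5 libraries set by fraction, treatment and line. A control line carried a stable control hairpin (shControl) and a knockdown line a stable hairpin against the RNA-binding protein IGF2BP3 (shIGF2BP3), so each hairpin is represented by 1 line, and loss of IGF2BP3 cannot be told apart from other ways in which the lines differ. Every culture grew in RPMI with 10% fetal bovine serum and was starved overnight in 2% medium. IL-13 groups then received 100 ng/ml of the cytokine, with harvest after 24 h, and the others were left unstimulated. Input is total RNA and polysome is RNA bound to polyribosomes, separated by fractionation (Frac-seq). The sample titles write siC and siIGF2BP3 for the lines. The labels do not say whether the 5 libraries of a group came from separate cultures, so the p-values measure the spread between libraries, which may be technical.

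Input libraries held between 14044352 and 40441061 estimated counts and polysome libraries between 1816848 and 34082191. Below 5000000 counts were 3 knockdown polysome libraries, unstimulated replicates 1 and 5 and IL-13 replicate 5. The targeted gene IGF2BP3 overlapped between the lines in all 4 settings, with log2 differences of -0.50 and -0.45 in input (unstimulated and IL-13, adjusted p = 1 in edgeR for both) and -0.10 and -0.15 in polysome (0.985 and 0.944), so "knockdown" below follows the label. The epithelial keratins KRT8 and KRT18 had medians of 481 and 644 TPM (deposited transcript levels scaled for length and depth). Those of KRT7 and KRT19 were 124 and 39.8 TPM, whereas EPCAM and CDH1 had medians of 0.387 and 0.0652 TPM. KRT5 and TP63 had medians of 0. The mesenchymal gene VIM had a median of 727 TPM. Medians of the other mesenchymal genes were lower: COL1A1 33.7, PDGFRB 16.3, CDH2 12.3, ACTA2 5.81 and COL1A2 1.12 TPM. Of the immune genes PTPRC and CD3E had medians of 0 and CD14 a median of 12.9 TPM (3.22 to 37.4), and of the endothelial genes PECAM1 had a median of 0, VWF of 0.0253 and CDH5 of 0.705 TPM. Unstimulated control replicate 1 held the highest SOCS2 and SOCS7 of its group in both fractions. Their unstimulated control input levels are given with and without it. So are the IL-13 estimates of SOCS2 in control cells and the polysome to input ratio of SOCS7 in unstimulated control cells.

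SOCS3 was the most abundant SOCS transcript without IL-13 and CISH with IL-13. Levels of different genes were compared in TPM. In unstimulated input SOCS3, which inhibits gp130 receptors, measured 14.0 TPM ± 4.12 (SD, n = 5) in control and 15.0 ± 4.17 (SD, n = 5) in knockdown cells. The next gene, SOCS7, was at 5.15 ± 2.01 and 4.41 ± 0.476 TPM, and its libraries did not overlap with those of SOCS3. SOCS5, SOCS4 and SOCS6 followed between 3.83 and 4.18 TPM, and no neighbours among SOCS7, SOCS5, SOCS4 and SOCS6 differed beyond their spread in either line. SOCS2 (3.09 ± 1.99 and 1.52 ± 0.261 TPM), SOCS1 (1.81 ± 0.659 and 1.40 ± 0.209 TPM) and CISH (1.33 ± 0.386 and 1.20 ± 0.192 TPM) came last, each overlapping with the next. Without unstimulated control replicate 1, SOCS2 was at 2.24 ± 0.716 and SOCS7 at 4.38 ± 1.20 TPM in control input (SD, n = 4). By CPM, which is not scaled for length, SOCS7 came before SOCS3 in unstimulated control input. CISH is an inhibitor best known at receptors that signal through STAT5, and SOCS1 blocks JAK kinases directly.

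With IL-13 the order changed at its ends. CISH reached 19.1 TPM ± 4.43 in control and 17.9 ± 2.94 in knockdown input (SD, n = 5), ahead of SOCS3 at 11.4 ± 3.51 and 12.7 ± 1.41 and of SOCS1 at 10.5 ± 4.48 and 10.2 ± 1.35 TPM. Neighbours among these 3 overlapped, and all libraries of SOCS1 lay above those of SOCS7, the fourth gene, at 3.67 and 4.30 TPM. In polysome RNA with IL-13, CISH reached 32.5 TPM ± 5.26 in control and 30.8 ± 4.02 in knockdown cells, above every library of SOCS3 at 13.0 ± 2.75 and 13.9 ± 3.16 TPM. SOCS2 was last in all 4 IL-13 groups, between 0.926 and 1.50 TPM, and SOCS1 was last in both unstimulated polysome groups, at 0.389 and 0.380 TPM.

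Summed over the family, unstimulated input held 37.6 TPM ± 8.78 in control (34.0 ± 4.19 without replicate 1, n = 4) and 35.5 ± 4.38 in knockdown cells (SD, n = 5), and with IL-13 55.9 ± 9.06 and 58.6 ± 6.60 TPM. Polysome RNA held 26.8 ± 6.06 (24.3 ± 2.46 without replicate 1, n = 4) and 30.8 ± 5.03 TPM without IL-13 and 61.4 ± 5.75 and 62.9 ± 3.93 with it. The share of CISH in this sum moved from 3.53% ± 0.495 to 34.0% ± 4.73 in control input and from 3.46% ± 0.826 to 30.5% ± 2.16 in knockdown input. In polysome RNA it moved from 8.22% ± 3.36 to 52.9% ± 5.37 and from 4.24% ± 1.64 to 49.1% ± 6.48. SOCS1 went from 4.80% to 18.4% of the family in control input, but from 1.45% to 7.04% in control polysome.

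**Figure D1:**
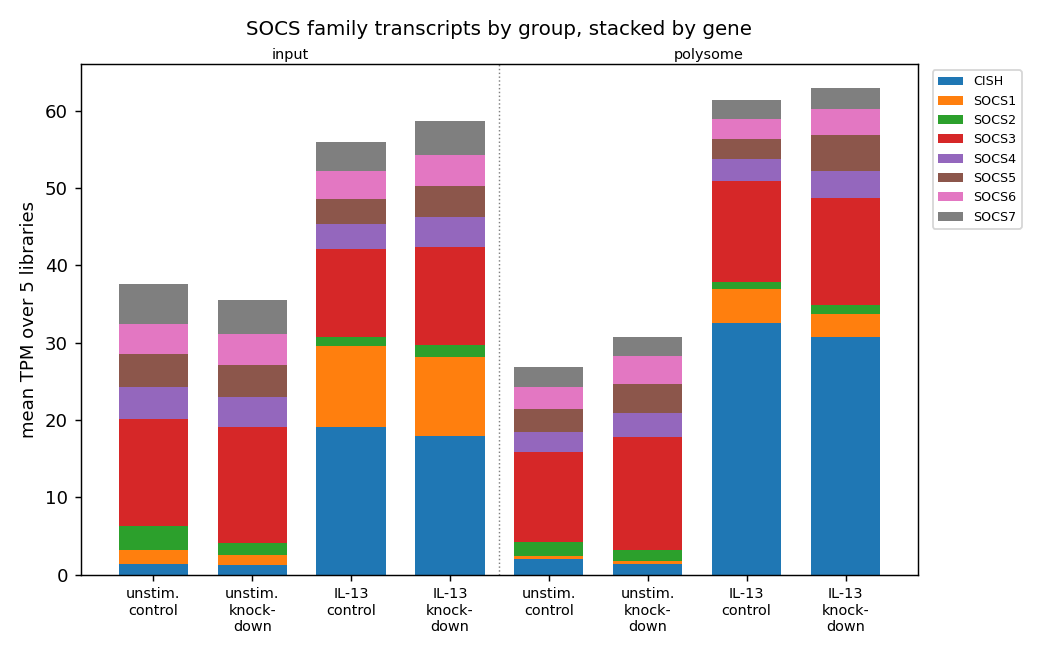
Mean TPM of the 8 SOCS family genes (vertical axis, stacked by gene) in the 8 groups, input to the left of the dotted line and polysome to the right. The CISH segment grows from 1.33 to 19.1 TPM in control input and from 2.09 to 32.5 TPM in control polysome, while the SOCS3 segment stays between 11.4 and 15.0 TPM in all groups.

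IL-13 raised CISH and SOCS1 in both lines and both fractions, and no other SOCS gene was called for IL-13 in any of these comparisons. Values per library are given in CPM, counts scaled by library totals adjusted with TMM factors, and not scaled for transcript length. Calls were made at 0.05 on edgeR p-values adjusted over all genes tested. CISH measured 2.82, 2.30, 1.63, 1.51 and 2.08 CPM in the unstimulated control input libraries and 45.6, 30.5, 27.6, 27.6 and 35.2 CPM with IL-13. In knockdown input it measured 2.18, 1.84, 2.09, 1.41 and 2.00 CPM without IL-13 and 28.4, 26.7, 29.0, 33.5 and 24.1 CPM with it. Every IL-13 library was higher than every unstimulated library of its line, by log2 fold changes of 4.01 ± 0.25 (SE, adjusted p = 4.89e-14 in edgeR) in control and 3.90 ± 0.25 (1.34e-13) in knockdown cells. In bulk RNA, more cells with the transcript and more transcript per cell cannot be told apart.

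In polysome RNA CISH measured 2.40, 5.37, 2.94, 5.05 and 3.46 CPM in unstimulated control libraries and 51.3, 80.6, 69.6, 46.1 and 51.8 CPM with IL-13. The knockdown line had 1.25, 1.57, 3.25, 1.64 and 3.42 CPM without IL-13, which in the shallow replicates 1 and 5 stood for 5 and 7 counts, and 41.1, 55.9, 44.3, 51.7 and 58.9 CPM with it. The ranges again lay apart, and the log2 fold changes were 3.95 ± 0.25 (SE, adjusted p = 8.27e-14 in edgeR) and 4.55 ± 0.27 (8.83e-15). Over the fits that each left out 1 library, all 4 CISH calls were kept.

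SOCS1 measured 2.64, 1.08, 1.46, 1.60 and 1.59 CPM in unstimulated control input and 19.4, 8.28, 11.0, 7.65 and 7.89 CPM with IL-13. In knockdown input it had 1.19, 1.11, 1.42, 1.30 and 1.33 CPM without and 11.9, 8.12, 7.82, 10.4 and 9.27 CPM with IL-13. The groups did not overlap, and the log2 fold changes were 2.69 ± 0.39 (SE, adjusted p = 1.10e-04 in edgeR) and 2.90 ± 0.40 (3.00e-05). In polysome RNA SOCS1 was near the limit of counting without IL-13, at 0.731, 0.273, 0.210, 0.766 and 0.112 CPM in control libraries, from 7, 3, 4, 17 and 1 counts. With IL-13 these rose to 2.71, 7.27, 3.21, 3.29 and 6.52 CPM, a log2 fold change of 3.40 ± 0.44 (SE, adjusted p = 8.85e-06 in edgeR). The knockdown line had 0.499, 0.393, 0.286, 0.704 and 0 CPM without IL-13, from 2, 7, 5, 15 and 0 counts, and 2.48, 3.60, 2.81, 4.51 and 0.867 CPM with it, the last from 2 counts. All IL-13 libraries lay above the unstimulated ones here too (2.77 ± 0.45, adjusted p = 0.00100 in edgeR). With only the libraries compared in the fit, the SOCS1 polysome calls were lost in both lines (adjusted p of 0.0930 and 0.274).

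**Figure D2:**
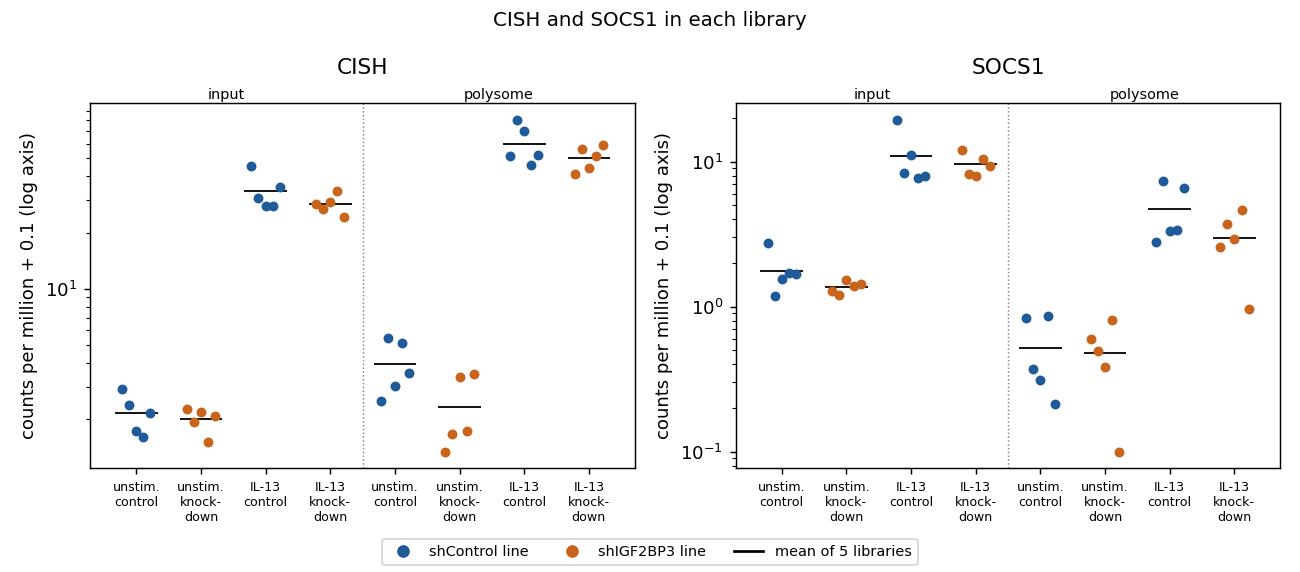
CISH (left) and SOCS1 (right) in each library as CPM + 0.1 on a log axis, by treatment and line, with input left of the dotted line and polysome right of it. Points are single libraries and lines are means of 5; all IL-13 points lie above the unstimulated points of the same line and fraction, and SOCS1 points are lower in polysome than in input while CISH points with IL-13 are higher.

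The called SOCS genes were 2 of 8 in each IL-13 comparison, both higher. Of all genes tested, 0.0777% were called in control input, 0.0837% in knockdown input, 0.125% in control polysome and 0.0956% in knockdown polysome. Averaged over both lines, CISH changed by 3.95 ± 0.18 in input and 4.25 ± 0.19 in polysome, and SOCS1 by 2.80 ± 0.28 and 3.08 ± 0.31 (log2 ± SE). There the background was 0.149% in input and 0.209% in polysome. The median log2 change of the 8 genes lay between -0.15 and 0.12 over the 4 comparisons within a line, beside medians between -0.02 and 0.00 over all genes.

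The windows upstream of these 2 genes differed in the letters of a STAT motif. The 250 bases before the start of each gene were taken from RefSeq (GRCh38.p14, given 5′ to 3′ on the gene's strand), whose table held a promoter for 5 of the 8 members. The build used for the deposited counts is not given in the sources used here. In RefSeq CISH lies at chr3:50606489-50611774, SOCS1 at chr16:11254417-11256204 and SOCS3 at chr17:78356778-78360925, all on the minus strand. The windows of CISH (chr3:50611775-50612024) and SOCS1 (chr16:11256205-11256454), which rose with IL-13, are shown beside that of SOCS3 (chr17:78360926-78361175), the abundant member that was not called. Capitals mark the motif TTCNNNGAA, the general form of a STAT site, which reads the same on both strands.
CISH: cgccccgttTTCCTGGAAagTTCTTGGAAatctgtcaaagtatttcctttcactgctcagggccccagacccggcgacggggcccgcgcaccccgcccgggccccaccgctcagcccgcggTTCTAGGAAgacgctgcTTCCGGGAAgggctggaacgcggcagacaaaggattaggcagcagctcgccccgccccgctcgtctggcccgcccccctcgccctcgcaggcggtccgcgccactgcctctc
SOCS1: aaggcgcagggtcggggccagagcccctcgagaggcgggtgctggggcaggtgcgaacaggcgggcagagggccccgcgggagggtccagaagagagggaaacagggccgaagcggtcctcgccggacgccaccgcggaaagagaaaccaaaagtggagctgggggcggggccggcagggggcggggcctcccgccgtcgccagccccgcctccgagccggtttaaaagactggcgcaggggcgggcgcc
SOCS3: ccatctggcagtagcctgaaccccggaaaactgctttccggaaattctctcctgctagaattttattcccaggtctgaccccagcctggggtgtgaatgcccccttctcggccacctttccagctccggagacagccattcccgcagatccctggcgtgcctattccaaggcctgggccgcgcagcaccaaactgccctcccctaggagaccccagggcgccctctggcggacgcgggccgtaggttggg
CISH held 4 copies, TTCCTGGAA, TTCTTGGAA, TTCTAGGAA and TTCCGGGAA, beginning 241, 230, 129 and 112 bases before its start. The windows of SOCS1, SOCS3 (both of its starts), SOCS4 and SOCS6 held none, and SOCS2, SOCS5 and SOCS7 were not in the table. Among 35116 promoter windows of this length, 6.57% held at least 1 copy, 0.356% at least 2 and 5 windows at least 4. The form with 1 more N in its middle, which STAT6 is known to prefer, was in 5.38% of all windows and in none of the members' windows. A match describes letters only, and no binding was measured.

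SOCS2 to SOCS7 were not called for IL-13. SOCS2, which restrains growth hormone signalling, had the largest estimate among these 6 genes, -1.07 ± 0.52 (log2 ± SE) in control input, with a p of 0.0452 in edgeR but an adjusted p of 1. Its unstimulated control input libraries measured 8.998, 1.53, 2.44, 4.89 and 2.68 CPM and the IL-13 libraries 0.901, 2.31, 3.08, 1.30 and 2.15 CPM. The groups overlapped, and replicate 1 was the highest unstimulated library, as it was in polysome RNA, where the 5 values were 7.16, 2.00, 2.31, 0.676 and 2.90 CPM against 1.52, 0.352, 1.67, 1.46 and 3.04 CPM with IL-13. Without that replicate in both fractions, the SOCS2 estimates were -0.56 in input and -0.30 in polysome in place of -1.07 and -0.91. In knockdown cells they were 0.09 ± 0.52 in input and -0.66 ± 0.55 in polysome. SOCS2-AS1, an antisense gene at the same place, held a median of 6.79 and at most 22.8 counts per library. The 8 annotated SOCS pseudogenes held at most 9 counts.

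For SOCS3 the IL-13 estimates were -0.15, -0.22, 0.14 and -0.15 (control and knockdown input, then control and knockdown polysome), each with an SE of 0.27. Its libraries ran from 18.5 to 43.5 CPM in input and from 16.6 to 53.4 CPM in polysome. The lowest end of the 4 intervals (95%) was -0.77 and the highest end 0.69, so changes beyond these bounds on the log2 scale lay outside the intervals. SOCS4, SOCS5, SOCS6 and SOCS7 had estimates between -0.35 and 0.25 over the 4 comparisons, and their intervals ran from -0.91 to 0.87. SOCS4 and SOCS5 are known to act on EGFR, and SOCS6 and SOCS7 on insulin signalling.

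**Figure D3:**
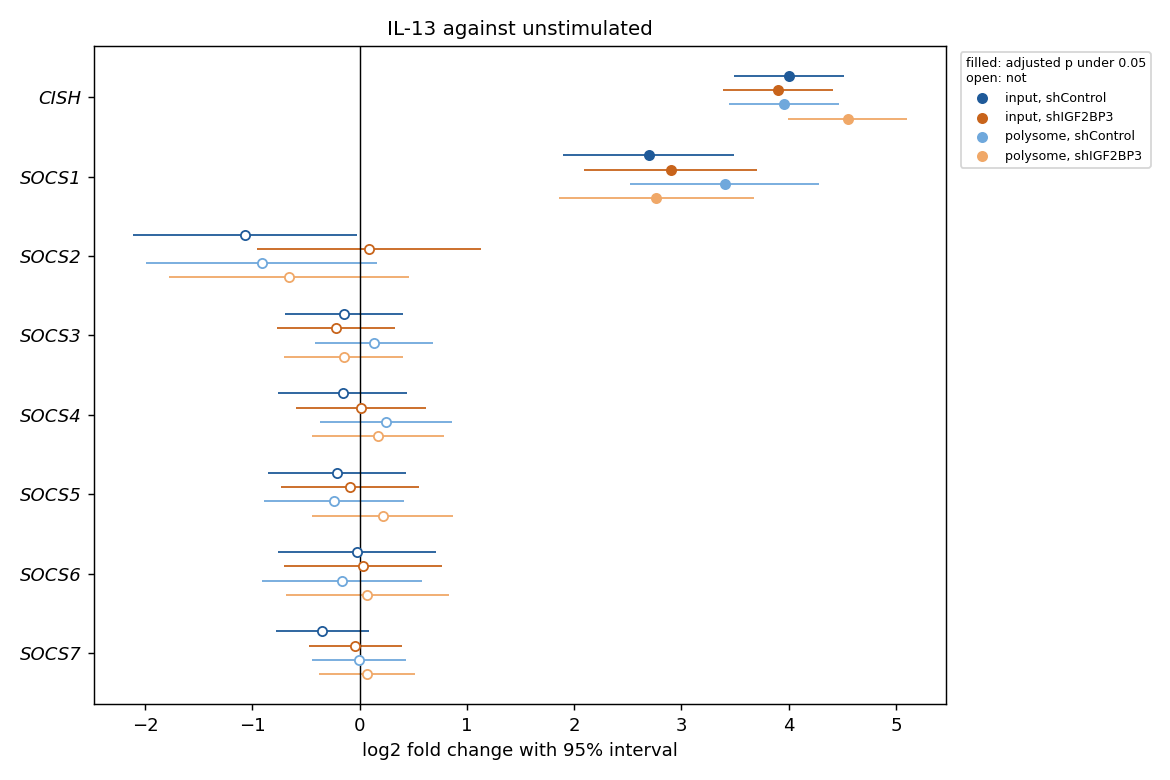
Log2 fold change with IL-13 for the 8 genes (rows) with 95% intervals, 4 points per gene for the 2 fractions and lines; filled points passed an adjusted p of 0.05. CISH lies between 3.90 and 4.55 and SOCS1 between 2.69 and 3.40, and the other 6 genes lie between -1.07 and 0.25 with open points.

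**Figure D4:**
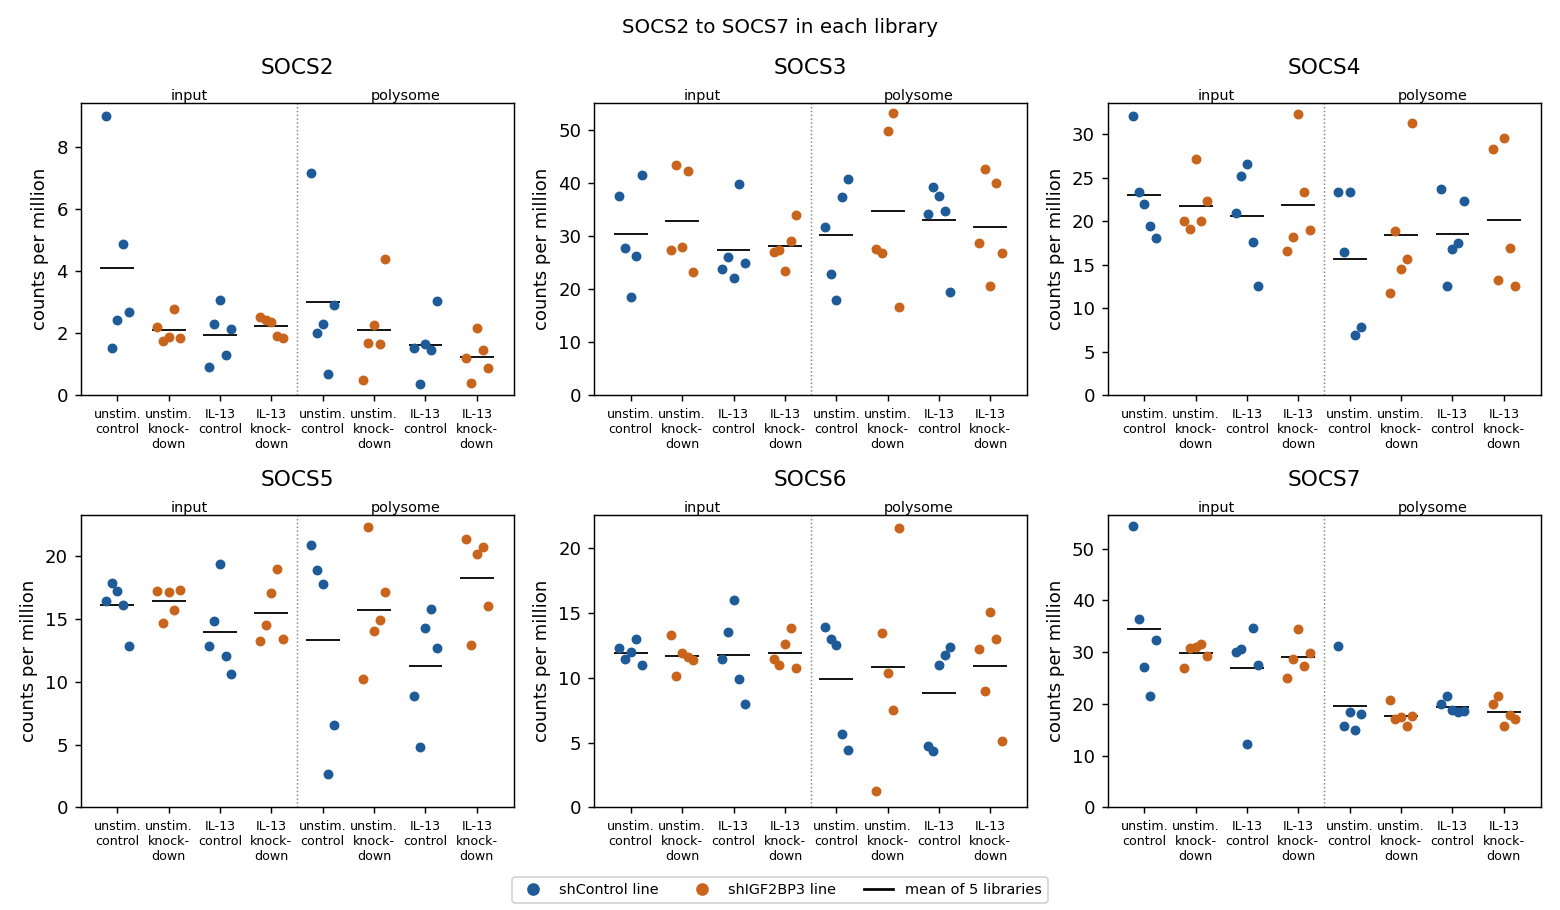
SOCS2 to SOCS7 in each library as CPM (vertical axes start at 0), by treatment and line, with input left of the dotted line and polysome right of it; lines are means of 5 libraries. The means of SOCS7 lie lower in polysome than in input in all 4 settings, with overlapping points in control cells with and without IL-13. SOCS2 has its highest points in unstimulated control replicate 1. SOCS5 and SOCS6 spread more widely in polysome than in input in all 4 settings, as did SOCS4 in 3 of 4 (not in IL-13 control cells).

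No SOCS gene was called between the lines. Of the 8 genes, 0 were called in each of the 4 comparisons by edgeR and by the Wald test of DESeq2, and 0, 0, 1 and 1 had an unadjusted p under 0.05 in edgeR (unstimulated and IL-13 input, unstimulated and IL-13 polysome). Of all genes, 0.0120%, 0%, 0.0299% and 0.0896% were called by edgeR, and the Wald test called 28, 55, 90 and 144 genes. The gene with the smallest p was CISH in unstimulated polysome RNA, at 2.40 to 5.37 CPM in control and 1.25 to 3.42 CPM in knockdown libraries. These overlapped, and the log2 difference was -0.85 ± 0.26 (SE), with a p of 0.00219 and an adjusted p of 0.270 in edgeR. With only the 37 libraries of at least 5000000 counts it was -0.83 (adjusted p = 0.489). In unstimulated input CISH differed by -0.12 ± 0.24, and with IL-13 by -0.23 ± 0.22 in input and -0.25 ± 0.22 in polysome.

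SOCS5 in IL-13 polysome RNA was the other gene with a p under 0.05, with 8.89, 4.80, 14.3, 15.8 and 12.7 CPM in control and 21.3, 12.9, 20.2, 20.7 and 16.0 CPM in knockdown libraries. The groups overlapped and the difference of 0.69 ± 0.32 was not called (adjusted p = 0.459 in edgeR). A measure of long against short mRNAs moved with it. For each library it is the median of genes with a longest coding transcript of at least 5129 bases in the GENCODE annotation, minus that of genes of at most 2162 bases, over log2(CPM + 1) centred per gene (8752 genes, the SOCS genes left out). It lay between -1.23 and -0.38 in the IL-13 control and between -0.64 and -0.18 in the IL-13 knockdown polysome libraries, and its part in the SOCS5 difference was not tested. SOCS1 differed by -0.39 ± 0.38 in unstimulated and -0.19 ± 0.37 in IL-13 input, and by 0.02 ± 0.47 and -0.62 ± 0.38 in the matching polysome groups.

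The size of the IL-13 effect was also compared between the lines. For CISH it was 0.11 smaller in knockdown input (-0.11 ± 0.33, 95% interval -0.77 to 0.55) and 0.60 ± 0.34 larger in knockdown polysome (-0.09 to 1.28). For SOCS1 the differences were 0.21 ± 0.52 (-0.86 to 1.27) and -0.64 ± 0.61 (-1.87 to 0.60). None of the 8 genes was called in input or polysome by edgeR or the Wald test of DESeq2, none had an unadjusted p under 0.05 in edgeR, and 0% of all genes were called by edgeR in either fraction. Over all genes the Wald test called 6 in input and 25 in polysome. Both intervals for SOCS1 hold differences of more than 1 on the log2 scale.

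Relative to input, polysome RNA held more CISH in 3 of 4 settings, less SOCS1 in all 4 and less SOCS7 in 3. In unstimulated control cells the log2 ratio of polysome to input was 0.90 ± 0.24 (SE) for CISH (adjusted p = 0.00230 in edgeR). With IL-13 it was 0.85 ± 0.22 in control and 0.83 ± 0.22 in knockdown cells (0.00220 and 0.00293). In unstimulated knockdown cells the CISH ratio was 0.18 ± 0.26 and was not called (0.637). The libraries lay apart in both IL-13 settings and overlapped in both unstimulated ones. Whether the CISH ratio differed between unstimulated lines was tested as an interaction, -0.72 ± 0.35 with a p of 0.0460 and an adjusted p of 1.00 in edgeR. With only the libraries compared in the fit, the unstimulated control call was lost (0.98, adjusted p = 0.0582).

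SOCS1 was lower in polysome than in input in all 4 settings, and its libraries did not overlap between fractions in any of them. The log2 ratios were -1.95 ± 0.42 (SE, adjusted p = 2.78e-04 in edgeR) and -1.53 ± 0.45 (0.00546) without IL-13, in control and knockdown cells, and -1.24 ± 0.37 (0.00734) and -1.67 ± 0.38 (5.13e-04) with it. The call in IL-13 control cells was lost without input replicate 1, at 19.4 CPM (-0.92, adjusted p = 0.0556). As a description, the ratio of polysome to input CPM was taken over same-numbered libraries of all 4 settings, which the main fit did not pair. Its median was 0.323 for SOCS1, below 1 in all 20 as the lack of overlap requires. For CISH the median was 1.61, above 1 in 17 of 20. So CISH and SOCS1, which both rose with IL-13, lay on opposite sides of input in polysome RNA.

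SOCS7 measured 54.4, 36.4, 27.2, 21.4 and 32.4 CPM in unstimulated control input and 31.2, 15.7, 18.4, 15.0 and 18.1 CPM in the polysome libraries. Replicate 1 was the highest in both, and the fractions overlapped through it (-0.81 ± 0.22, adjusted p = 0.00253 in edgeR; -0.81 without that replicate, 0.00141). In unstimulated knockdown cells input libraries ran from 26.9 to 31.6 CPM and polysome libraries from 15.7 to 20.8 CPM, without overlap (-0.76 ± 0.22, adjusted p = 0.00505). With IL-13 the ratio was -0.65 ± 0.22 in knockdown cells (0.0148). It was -0.47 ± 0.22 in control cells and not called (0.0801), where input replicate 3 was low at 12.2 CPM against 27.6 to 34.6 CPM in the other input libraries, and without it -0.66 (adjusted p = 0.00693). The knockdown call with IL-13 was lost without the 3 shallow libraries (-0.47, adjusted p = 0.109).

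**Figure D5:**
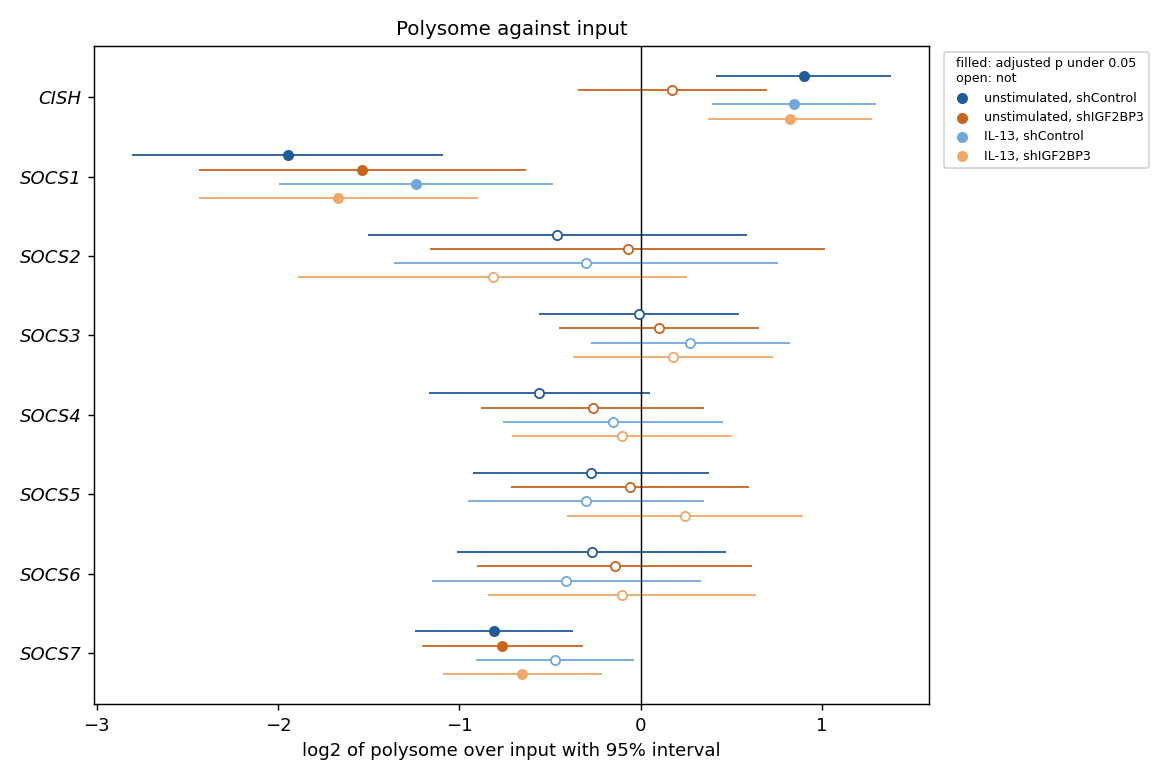
Log2 ratio of polysome to input for the 8 genes (rows) with 95% intervals, 4 points per gene for the 2 treatments and lines; filled points passed an adjusted p of 0.05. CISH lies between 0.18 and 0.90, SOCS1 between -1.95 and -1.24 and SOCS7 between -0.81 and -0.47, and every interval of the other 5 genes crosses 0.

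Of the 8 genes, 3 were called between fractions in unstimulated control cells, where 40.2% of all genes were called. The counts were 2 in unstimulated knockdown cells (38.5% of all genes), 2 in IL-13 control cells (39.3%) and 3 in IL-13 knockdown cells (39.3%). These counts of 2 or 3 in 8 are no higher than the background. The median ratio over all genes was between -0.23 and -0.19, and that of the SOCS genes between -0.37 and -0.10. SOCS2, SOCS3, SOCS4, SOCS5 and SOCS6 had ratios between -0.82 and 0.27 and were not called. A change of the IL-13 effect from input to polysome, or of the difference between lines, was called for 0 of the 8 genes in each of the 4 interaction tests by edgeR and by the Wald test of DESeq2. Unadjusted, 1 gene, CISH, had a p under 0.05 in edgeR, in the unstimulated test given above. Of all genes 0% were called by edgeR in 3 of these tests and 0.00598% in the difference between IL-13-treated lines. The Wald test called 20 and 5 genes for the IL-13 effect in control and knockdown cells, and 10 and 10 for the difference between unstimulated and IL-13-treated lines.

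The fractions also differed in long mRNAs as a class. The measure of long against short mRNAs was above 0 in all 20 input libraries (0.04 to 0.99) and below 0 in all 20 polysome libraries (-1.27 to -0.18). SOCS7 has the longest transcript of the family (7857 bases), followed by SOCS4 (6779), SOCS6 (5848) and SOCS5 (4771). SOCS1 (1784 bases) and CISH (2167) are the shortest, and they moved in opposite directions. The summed level of the 6 mesenchymal markers was lower in polysome libraries (400 to 687 TPM) than in input libraries (875 to 1753 TPM). The 8 epithelial markers also had a lower summed median in polysome (1230 against 1609 TPM), with overlapping ranges (715 to 1497 and 1162 to 2680 TPM). So had the 4 immune markers (10 against 15.1 TPM) and the 3 endothelial markers (0.707 against 0.793 TPM). The part of the markers and that of length in the SOCS ratios was not tested.

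Several SOCS genes varied between polysome libraries of 1 group. In unstimulated control polysome RNA, SOCS5 measured 20.9, 18.9, 17.8, 2.66 and 6.58 CPM, and SOCS6 measured 13.9, 13.0, 12.5, 5.63 and 4.46 CPM. SOCS4 measured 23.4, 16.5, 23.4, 6.97 and 7.80 CPM. Replicates 4 and 5 were the lowest for all 3 genes. In IL-13 control polysome RNA the 3 genes did not share an order, since replicate 1 was the highest for SOCS4 (23.7 CPM) and the second lowest for SOCS5 (8.89 CPM) and SOCS6 (4.77 CPM). In the 5 unstimulated control polysome libraries the length measure was -0.32, -0.44, -0.52, -1.27 and -1.19, lowest in replicates 4 and 5. Over the 20 polysome libraries its Pearson r was 0.92 with SOCS5, 0.74 with SOCS4 and 0.56 with SOCS6. It was -0.49 with SOCS3, 0.35 with SOCS2, -0.04 with CISH, -0.09 with SOCS1 and 0.08 with SOCS7. These libraries differed in depth (1816848 to 34082191 counts), and the part of depth in the correlations was not tested. Over the 20 input libraries r was 0.55 with SOCS7, 0.485 with SOCS4, 0.32 with SOCS5 and 0.10 with SOCS6, and between -0.35 (SOCS2) and -0.04 (SOCS3) with the other 4 genes. In unstimulated control input SOCS5 ran from 12.9 to 17.8 CPM and SOCS6 from 11.0 to 13.0 CPM.

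The genes whose pattern was most like each member were taken by Pearson r of log2(CPM + 1) over the 40 libraries, among 13101 genes of at least 1 CPM on average, as a description. For CISH they were HSD3B1 (0.94), PPFIBP2 (0.92) and CCL26 (0.89), and for SOCS1 BATF3 (0.88), PPP1R14A (0.88) and CCL26 (0.86). SOCS2 was most like PMAIP1 (0.80), TNFAIP3 (0.74) and AZI2 (0.73). SOCS7 was most like SLC7A1 (0.90), KDM6B (0.89) and OSMR (0.89), whereas SOCS3 reached only 0.73, with STIM1. The closest genes were RNF6 for SOCS4 (0.88), USP32 for SOCS5 (0.86) and CCNC for SOCS6 (0.90). Within the family, CISH and SOCS1 had an r of 0.73, SOCS4 and SOCS5 0.71, SOCS4 and SOCS6 0.68 and SOCS5 and SOCS6 0.67, and SOCS3 ran against SOCS4 at -0.47. The libraries differ in treatment, fraction and depth, and nothing about shared control follows from these values.

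The wider pathway was read from a list of 59 receptor chains, JAK kinases, STATs, other inhibitors, ligase partners of the SOCS box, and adaptors or targets, of which 56 were tested, IL13RA2, IL2RG and PTPRC being too low. For IL-13, 0 of the 56 were called in any of the 4 comparisons within a line by edgeR, and 1, 0, 3 and 1 had an unadjusted p under 0.05 (control and knockdown input, then polysome). The Wald test of DESeq2 called 0 of them too. With only 0.0777% to 0.125% of all genes called by edgeR, a count of 0 in 56 is near the background. Group means of IL13RA1 were between 39.1 and 46.5 CPM, those of IL4R between 24.6 and 40.2 CPM and those of STAT6 between 58.7 and 106 CPM over the 8 groups. Between the lines 0 of the 56 were called in edgeR either, with 1, 1, 3 and 4 at an unadjusted p under 0.05, while the DESeq2 test called PRLR and USP18 in unstimulated polysome and USP18 in IL-13 polysome RNA (named after their values were seen).

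Between fractions 26, 23, 25 and 26 of the 56 genes were called (unstimulated control and knockdown, then IL-13 control and knockdown). These are 46.4%, 41.1%, 44.6% and 46.4% of the list, beside 40.2%, 38.5%, 39.3% and 39.3% of all genes, and are near the background. Called lower in polysome were 20, 18, 20 and 20 of them (35.7%, 32.1%, 35.7% and 35.7% of the list, beside 22.8%, 22.0%, 22.6% and 23.3% of all genes). STAT3, a STAT of gp130 receptors, had a polysome to input ratio of -1.79 ± 0.20 (log2 ± SE, adjusted p = 3.95e-09 in edgeR) in unstimulated control cells. The ratio there was -2.88 ± 0.38 for JAK1, a kinase of the IL-13 receptor, -2.50 ± 0.29 for the growth factor receptor EGFR, and -1.75 ± 0.23 for RNF7, a ring protein of cullin ligases. The adaptor GRB2 was higher in polysome (1.39 ± 0.13), as was the inhibitor USP18 (1.53 ± 0.20). Of 17 receptor chains tested, 0 were called higher and 5 to 7 lower over the 4 settings, and of the 7 STATs 4 were lower in each, among them STAT6 (-0.60 ± 0.22 in unstimulated control cells). The list's median ratio was between -0.57 and -0.36, that of the SOCS genes between -0.37 and -0.10.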

How the data were processed

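Poly(A)-selected, stranded libraries of input and polysome RNA were sequenced, per the labels' protocols. The authors deposited estimated counts (unscaled, not whole numbers) and TPM (scaled for length and depth) for each gene, per the file headers and values. The deposited TPM summed per library to between 82.3% and 85.9% of a full set. The submitters' processing notes name Trimmomatic, Salmon, MultiQC and DESeq2, with no versions, and the genome build and annotation are not given in the sources used here. Library totals are given in the report. No molecular identifiers are mentioned, so counts carry counting error at least.

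The deposited estimated counts were rounded and filtered with filterByExpr on the 8 groups (16735 genes, at least 99.914% of each library's counts), scaled by TMM, and fitted with edgeR 4.0.16 in R 4.3.3 by quasi-likelihood, with a mean for each group, over 40 libraries (32 residual degrees of freedom). The 20 comparisons were two-sided, with Benjamini-Hochberg adjustment across the tested genes. SE is the absolute log2 fold change divided by the square root of F. TPM were compared between genes only as levels. The 8 members, the pathway list and the marker lists were chosen with earlier results of these data known. Named genes were all 8 members, the 3 genes of highest r with each (3 given for CISH, SOCS1, SOCS2 and SOCS7 and the first for the others), and up to 5 called genes of the pathway list per comparison by smallest p. IL13RA1, IL4R and STAT6 were named as the receptor and STAT of the cytokine. A search of protein sequences was planned and not run. Same-numbered libraries were not paired: in no comparison were all 5 correlations of their deviations over 0.1. The length measure was chosen after seeing the data. Alternatives were DESeq2 size factors, no filter, the Wald test in DESeq2 1.42.0, only the libraries compared or of the fraction, replicate or culture blocks, a length offset, only deep libraries, no unstimulated control replicate 1, CPM for TPM, and leaving out each library. The fit was tested on simulated data.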

Additional observations from a re-analysis of the deposited data

Results flagged for a closer look

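Among 64 groups of 5 libraries (8 genes in 8 groups), 4 had a library far from the other 4, where chance gives about 3.2. In replicate 1 of the IL-13 control input group SOCS1 was at 19.41 CPM, against 7.65 to 11.0 CPM in the others. SOCS3 was at 39.96 CPM in replicate 4 of the same group (the others 22.2 to 26.0 CPM) and 19.55 CPM in polysome IL-13 control replicate 5 (the others 34.2 to 39.3 CPM). SOCS7 measured 31.22 CPM in polysome unstimulated control replicate 1, against 15.0 to 18.4 CPM in the others.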

How the results depend on the processing

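CISH and SOCS1 kept their higher level with IL-13 in every setting run, and no member's called change turned direction in any setting. With only the 20 libraries of a fraction, 1 of 8 genes was called for IL-13 in knockdown polysome in place of 2, because SOCS1 (2.82) had an adjusted p of 0.114. With only the libraries compared, 1 was called in control and 1 in knockdown polysome (SOCS1, 0.0930 and 0.274), and 1 in place of 3 between fractions in unstimulated control cells (CISH at 0.0582 and SOCS7 at 0.0604 were lost). The cause was not tested. Leaving out 1 library gave 1 to 3 genes called between fractions in IL-13 control cells. SOCS7 between fractions in IL-13 knockdown cells was -0.49 (adjusted p = 0.0749) with a length offset. Without unstimulated control replicate 1 in both fractions, SOCS7 was called between fractions in IL-13 control cells (0.0325). By CPM, CISH ranked 2 in input IL-13 knockdown in place of 1, 7 in place of 8 in both unstimulated input groups (7 in control, 7 in knockdown), and 6 in place of 7 in unstimulated knockdown polysome. SOCS7 ranked 1 and SOCS3 2 in unstimulated control input, and SOCS1 7 in place of 3 in both IL-13 input groups and in IL-13 control polysome.

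The replicate block by number changed no count of called members: 2 in each IL-13 comparison, 0 between the lines, and 3, 2, 2 and 3 between fractions. A replicate block by culture, pairing the fractions by number, gave 4 called in unstimulated control cells, adding SOCS4 (-0.70, adjusted p = 0.0491). Of 1439 member values under other settings, 7 lost and 2 gained a call, and of 2240 with 1 library left out, 1 lost and 1 gained one. Over all genes, the IL-13 calls of 13 to 35 genes per comparison became 22 to 82 with the DESeq2 Wald test and 3 to 38 with only the libraries compared. For the knockdown, 0 to 15 became 28 to 144 with the Wald test. SOCS1 counts in unstimulated polysome libraries were 0 to 17, and the part of depth in its intervals was not tested.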
